A study of Mus musculus with 12 samples.

Results

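A set of 10 genes of iron handling was followed in mouse bone marrow-derived macrophages (BMDMs), out of 48795 genes listed, and all 10 passed the filter on low values and were among the 11228 genes tested. They were taken by name: the ferritin chains Fth1 and Ftl1, the ferritin cargo receptor Ncoa4, the iron exporter Slc40a1, the importers Tfrc, Slc11a1 and Slc11a2, the biliverdin reductases Blvra and Blvrb, and the iron sensor Ireb2. BMDMs had been grown from marrow of male mice, 7 to 11 weeks old, that were WT or Acod1-/-. The labels give the strain of the WT mice as C57BL/6 and that of the knockout mice as C57BL/6NJ-Acod1em1(IMPC)J/J. ACOD1 is the mitochondrial enzyme that makes itaconate. Cells of each genotype received vehicle, particulate matter (PM) at 20 µg/cm2 for 24 hours, or 4-octyl itaconate (OI, a cell-permeable form of itaconate) at 0.25 mM for 2 hours before the same PM exposure. Each of the 6 groups had 2 libraries, and libraries with OI alone were not analysed here. The comparisons ask what PM does to these genes, what OI adds to PM, and whether either depends on endogenous itaconate.

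Iron that enters a macrophage is stored inside ferritin, a shell of heavy chains (Fth1) and light chains (Ftl1), or leaves through ferroportin (Slc40a1), the sole known iron exporter of mammalian cells. Macrophages recycle the iron of heme: heme oxygenase opens the ring, biliverdin reductase converts the pigment that remains, and the iron is stored or exported. The iron-regulatory proteins, of which Ireb2 encodes IRP2, bind a short hairpin called the iron-responsive element (IRE) when iron is scarce. An IRE at the start of a transcript then blocks its translation, and IREs in the tail of Tfrc mRNA protect that mRNA from decay.

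The IRE was searched in the protein-coding transcripts of GENCODE M21, on the GRCm38 build, as C, 5 stem bases, the loop CAGTGN and 5 bases that pair with the stem, with G-U pairs allowed. Of 21877 genes, 0.142% held the motif in a 5′ UTR and 0.59% in a 3′ UTR. Among the iron genes 3 held it in the 5′ UTR and 1, Tfrc, held 4 copies in the 3′ UTR. The sites are shown because the matches lay in the 5′ UTR of storage and export genes and in the 3′ UTR of Tfrc. The loop is in capitals.
Fth1 (5′ UTR, plus strand, chr19:9982733-9982759): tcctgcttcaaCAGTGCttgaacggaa
Ftl1 (5′ UTR, minus strand, chr7:45459780-45459806): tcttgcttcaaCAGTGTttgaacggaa
Slc40a1 (5′ UTR, minus strand, chr1:45925466-45925492): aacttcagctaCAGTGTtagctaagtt
Tfrc, copy 1 (3′ UTR, plus strand, chr16:32631220-32631246): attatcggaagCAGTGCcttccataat
Tfrc, copy 2 (3′ UTR, plus strand, chr16:32631599-32631625): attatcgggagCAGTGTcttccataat
Tfrc, copy 3 (3′ UTR, plus strand, chr16:32631664-32631690): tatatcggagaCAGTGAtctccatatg
Tfrc, copy 4 (3′ UTR, plus strand, chr16:32631711-32631737): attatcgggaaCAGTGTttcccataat
The motif was in 4 of 5 protein-coding transcripts of Fth1, 1 of 2 of Ftl1, 1 of 4 of Slc40a1 and 1 of 3 of Tfrc. It was not matched in the annotated transcripts of the other 6 genes, Slc11a2 among them, which says only that these letters were not found there. An IRE with an unpaired base in these stem bases, or another loop, would be missed, in Tfrc as well. The antioxidant motif TGACNNNGC, searched on both strands in RefSeq promoter windows of GRCm38.p6 from 250 bases before to 50 after a start site, was in 2 of 13 windows of 8 of the genes (Ncoa4 and Blvra), against 12.4% of all windows. Slc40a1 and Slc11a2 had no window, and sites farther from a start site were not searched for any gene.

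The libraries held between 33616577 and 36817898 counts. Levels are library-scaled counts (CPM, with TMM factors). A gene was called at an adjusted p of 0.05 or less in edgeR's quasi-likelihood fit, with p-values adjusted by Benjamini and Hochberg over all 11228 genes. Errors of log2 fold changes are the SE implied by that test. The labels do not say whether replicates came from separate mice or cultures, so p-values measure the spread between these libraries. Acod1, the targeted gene, had 181 and 170 CPM in the WT libraries with PM and 108 and 94.1 CPM in the knockout libraries with PM, and whole-gene counts cannot show which part was deleted. In 2 groups the replicates differed more than in the others: the SD of their log2 difference over genes was 0.38 in WT with OI and PM and 0.26 in WT with PM, against 0.13 to 0.17 in the other 4 groups, and the difference rose with exonic length in both (Spearman's rho 0.61 and 0.60). The 8 macrophage markers summed to 14278 to 14599 CPM with vehicle, 23189 to 27338 with PM and 14428 to 16637 with OI and PM over both genotypes, and the part of this in the results was not tested.

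PM raised Fth1, Ftl1, Slc11a1, Slc11a2 and Blvrb and lowered Tfrc, in WT and in Acod1-/- BMDMs, while the calls for Ncoa4, for Slc40a1 in Acod1-/- and, without 1 library, for Ftl1 in Acod1-/- did not hold under every alternative. In WT, 6 of the 10 rose (Fth1, Ftl1, Ncoa4, Slc11a1, Slc11a2 and Blvrb), against 12.6% of all genes tested, and 1 fell (Tfrc), against 12.2%. In Acod1-/- BMDMs 7 rose, the same 6 with Slc40a1, against 12% of all genes, and 1 fell, again Tfrc, against 11.9%. Without any 1 of the 4 libraries compared, 5 rose in WT (6.42% to 14.3% of all genes), as Ncoa4 was lost, and 4 or 5 in Acod1-/- (6.96% to 8.41%), as Ncoa4 and Slc40a1 were lost, and also Ftl1 without Acod1-/- PM replicate 1. Without WT PM replicate 1, Ireb2 fell as well (16.4% of all genes fell). Total count scaling left 5 higher in each genotype (9.69% and 9.66% of all genes) and put 18.1% and 16.4% of all genes lower, with Ireb2 among them in WT. With a change of at least 2-fold asked as well, Fth1 and Blvrb rose in both genotypes, where 3.02% of all genes in WT and 3.19% in Acod1-/- passed. The median log2 fold change of the 10 genes was 0.49 in WT and 0.47 in Acod1-/-, beside 0.01 and 0.00 over all genes.

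With OI before PM, Fth1, Ftl1, Slc11a1 and Blvrb rose again and Tfrc fell again, in both genotypes, whereas Ncoa4 turned down. In WT, 5 of the 10 rose from PM to OI and PM (Fth1, Ftl1, Slc40a1, Slc11a1 and Blvrb), against 21.3% of all genes, and 2 fell (Tfrc and Ncoa4), against 22.6%. Total count scaling gave 4 higher and 3 lower (12.6% and 29.5% of all genes), with Slc40a1 lost and Slc11a2 gained, and the compared groups alone gave 4 and 2 (5.33% and 11.9%), with Slc40a1 lost. Leaving out a library gave 4 or 5 higher (14.1% to 31.5% of all genes) and 2 to 4 lower (18.5% to 28.8%). In Acod1-/- BMDMs the same 5 rose, against 13.9% of all genes, and 3 fell (Tfrc, Ncoa4 and Slc11a2), against 20.6%. The shares were 10.1% and 24% with total count scaling, and 24.3% and 27.3% in the compared groups alone, with the same counts of members. Both shares were lower when any library compared was left out. At 2-fold or more, Blvrb rose (2.3% of all genes) and Ncoa4 fell (8.49%) in WT, and none of the 10 passed in Acod1-/-, where 9.83% of all genes did in either direction. The 2-fold line was close for several: Blvrb with OI in WT was 1.01 and fell to 0.87 with total count scaling and 0.68 without WT OI and PM replicate 2, Ncoa4 was -0.99 without that library, and with PM total count scaling put Fth1 at 0.98 and 0.97 and Blvrb at 0.97 and 0.98 in WT and Acod1-/-. The median log2 fold change of the 10 was 0.13 in WT and 0.22 in Acod1-/-, beside 0.02 and 0.00 over all genes. The PM comparison and the OI comparison of a genotype share the libraries with PM alone. In bulk RNA, fewer cells of a type and less RNA per cell cannot be told apart.

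**Figure D1:**
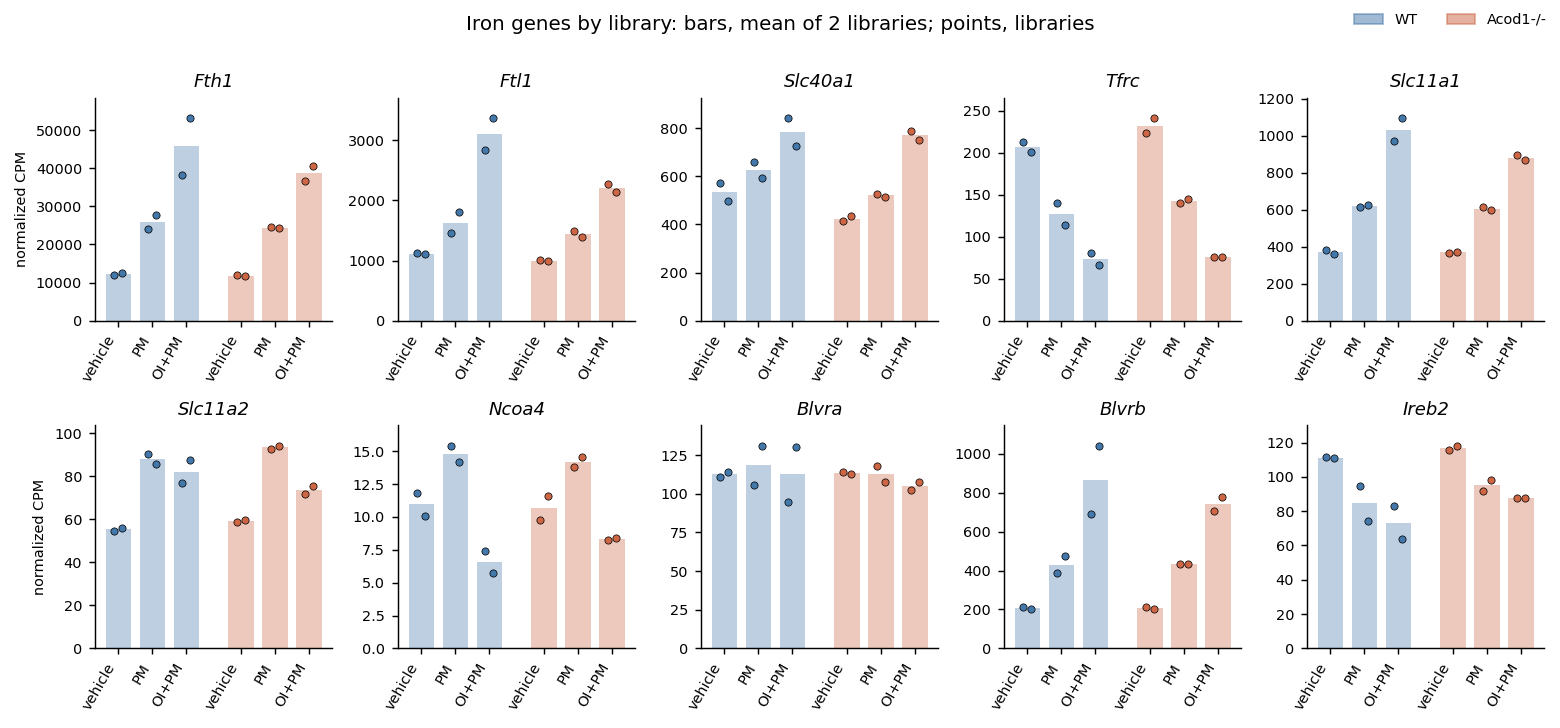
Normalized CPM of the 10 iron genes (vertical axes, linear, from 0) in the 6 groups, with bars for the mean of 2 libraries and points for the libraries, blue for WT and orange for Acod1-/-. Fth1, Ftl1, Slc11a1 and Blvrb step up from vehicle to PM to OI and PM, Tfrc steps down, Ncoa4 goes up and then below its vehicle level, and Blvra stays between 94.7 and 131 CPM.

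Fth1, the ferritin heavy chain, which oxidizes iron as it enters the shell, was among the most abundant transcripts of these cells. In WT it stood at 12057 and 12557 CPM with vehicle, 24092 and 27621 with PM, and 38279 and 53206 with OI and PM. In Acod1-/- it stood at 11910 and 11738, then 24541 and 24325, then 36747 and 40624 CPM. No library of a treatment overlapped one of another treatment, and the spread was widest in WT with OI and PM. Fth1 took the first rank by count in each of the 8 libraries with PM and ranked 5 in WT and 3 in Acod1-/- with vehicle. PM raised it by 1.07 ± 0.13 on the log2 scale in WT (edgeR adjusted p = 0.000291) and by 1.05 ± 0.13 in Acod1-/- (edgeR adjusted p = 0.000309), 2.1-fold and 2.07-fold. OI added 0.82 ± 0.13 in WT (edgeR adjusted p = 0.000657) and 0.66 ± 0.13 in Acod1-/- (edgeR adjusted p = 0.00288). From vehicle to OI and PM, the ratio of means was 3.72 in WT and 3.27 in Acod1-/-. Fth1 lies at chr19:9980598-9985098 on the plus strand, and 1.59% of its 50-base windows also occur in Gm6977, which stayed at or below 10.1 CPM.

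Ftl1, the light chain, which helps the iron core to form, rose in both steps. It stood at 1132 and 1102 CPM in WT with vehicle, 1453 and 1801 with PM, and 2837 and 3373 with OI and PM. In Acod1-/- the values were 1003.5 and 996, then 1499 and 1384, then 2277 and 2137 CPM. The treatments did not overlap within a genotype, and with OI and PM both Acod1-/- libraries lay below both WT libraries. PM raised Ftl1 by 0.54 ± 0.11 on the log2 scale in WT (edgeR adjusted p = 0.00533) and by 0.53 ± 0.11 in Acod1-/- (edgeR adjusted p = 0.00546), the latter at an edgeR adjusted p of 0.0544 without Acod1-/- PM replicate 1 (0.47). With a correction for gene length the values were 0.28 in WT and 0.33 in Acod1-/-, both still called. OI added 0.93 ± 0.11 in WT (edgeR adjusted p = 6.84e-05) and 0.61 ± 0.11 in Acod1-/- (edgeR adjusted p = 0.00129). Ftl1 lies at chr7:45457944-45459884 on the minus strand, and 58.4% of its 50-base windows occur in the transcripts of other genes, most of them in the pseudogene Ftl1-ps1. How the counting treated reads that map to several places is not given in the sources used here, so its level is uncertain. The pseudogenes Ftl1-ps1, Ftl1-ps2, Ftl2-ps, Fth-ps2 and Fth-ps3 stayed at or below 3.15 CPM in every library. Gm10252, which overlaps Ftl1 exons on the other strand, stayed at or below 6.49 CPM.

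Both chains together took a growing part of the whole library. They made up 1.35% to 1.46% of all counts with vehicle, 2.57% to 2.91% with PM, and 3.75% to 4.97% with OI and PM over both genotypes, and these ranges did not touch. The 95% Wilson interval of the highest share ran from 4.97% to 4.98%, and such intervals cover counting error only. Per length (TPM over union exons), Fth1 exceeded Ftl1 by 4.11 to 4.58 times with vehicle, 5.92 to 6.79 times with PM and 5.21 to 7.34 times with OI and PM. The heavy-to-light ratio was higher in all 8 libraries with PM than in all 4 with vehicle. Its size is uncertain, as the Ftl1 level is. Libraries with PM and with OI and PM overlapped in WT (6.4 and 5.92, then 5.21 and 6.09) and in Acod1-/- (6.33 and 6.79, then 6.23 and 7.34).

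**Figure D2:**
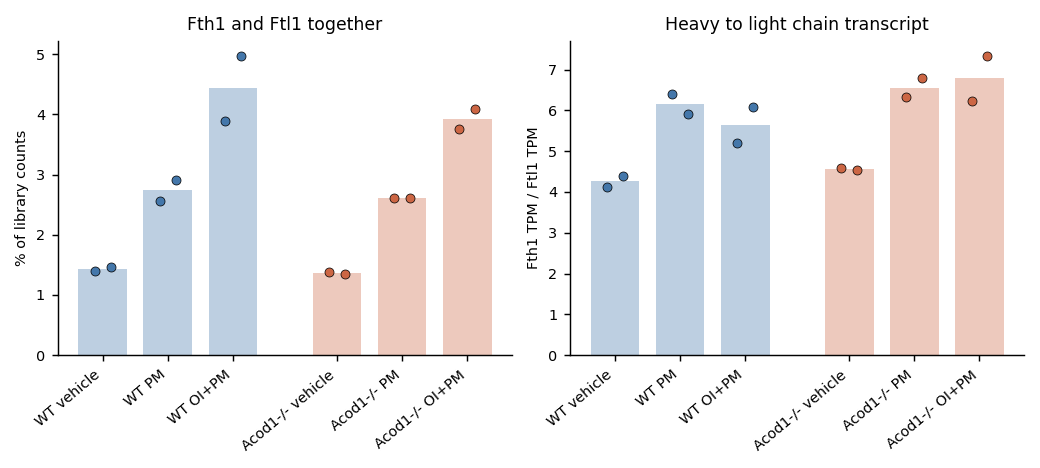
Left, Fth1 and Ftl1 counts together as a percentage of all counts of the library. Right, the ratio of Fth1 to Ftl1 in TPM over union exons, its size dependent on the length taken and uncertain as the Ftl1 level is. Bars are means of 2 libraries and points are libraries, with blue for WT and orange for Acod1-/-. The share climbs from near 1.4% to above 3.7%, and the ratio is between 4.11 and 4.58 with vehicle and above 5.2 in every library with PM.

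Ncoa4, the receptor that carries ferritin to lysosomes so that its iron is released, rose with PM and fell with OI. WT libraries had 11.8 and 10.1 CPM with vehicle, 15.4 and 14.2 with PM, and 7.43 and 5.75 with OI and PM. Acod1-/- libraries had 9.76 and 11.6, then 13.8 and 14.6, then 8.24 and 8.38 CPM. Every library with OI and PM lay below every library with vehicle, the opposite of Fth1 and Ftl1. OI lowered Ncoa4 by 1.16 ± 0.14 on the log2 scale in WT (edgeR adjusted p = 9.33e-05), to 0.447 times the PM level, and by 0.77 ± 0.14 in Acod1-/- (edgeR adjusted p = 0.00143), to 0.585 times. The rise with PM was 0.43 ± 0.13 in WT (edgeR adjusted p = 0.039) and 0.41 ± 0.13 in Acod1-/- (edgeR adjusted p = 0.0499), and both calls were lost when any of the 4 libraries compared was left out (edgeR adjusted p from 0.0667 to 0.292). Total count scaling also ended both calls (edgeR adjusted p = 0.0978 and 0.118). In Acod1-/- the call was lost under 9 of 13 alternatives, RLE scaling and both other filters on low counts among them (edgeR adjusted p from 0.0554 to 0.064). Ncoa4 lies at chr14:32159865-32179855 on the plus strand, and 17.9% of its 50-base windows also occur in Gm6768, which had 0.419 to 1.63 CPM. As for Ftl1, the unknown handling of reads that map to several places leaves its level uncertain.

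Slc40a1, ferroportin, rose with OI in both genotypes. It stood at 572 and 496 CPM in WT with vehicle, 659 and 593 with PM, and 843 and 728 with OI and PM. In Acod1-/- it stood at 413 and 433, then 526 and 516, then 789 and 754 CPM. The treatments did not overlap within a genotype, but the Acod1-/- PM libraries overlapped those of WT with vehicle. OI raised Slc40a1 by 0.33 ± 0.09 on the log2 scale in WT (edgeR adjusted p = 0.0148) and by 0.57 ± 0.09 in Acod1-/- (edgeR adjusted p = 0.000777). The WT call was lost without WT PM replicate 2 (0.25, edgeR adjusted p = 0.0846) or without WT OI and PM replicate 1 (0.22, edgeR adjusted p = 0.0506), and over its alternatives the adjusted p ran from 0.000195 to 0.172. PM gave 0.23 ± 0.09 in WT (edgeR adjusted p = 0.0909), which did not pass. It was called with the length correction (0.40, edgeR adjusted p = 0.000449) and with the replicate block, with or without that correction. In Acod1-/- PM gave 0.30 ± 0.09 (edgeR adjusted p = 0.0381). That call was lost when any of the 4 libraries compared was left out (0.27 to 0.33), and the value was 0.46 with the length correction. With total count scaling the effect of OI in WT was 0.20 (edgeR adjusted p = 0.15). The gene lies at chr1:45908068-45926523 on the minus strand, and none of its 50-base windows occurs in another gene.

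Tfrc, the transferrin receptor that brings in transferrin-bound iron, was the one gene of the 10 that fell in all 4 treatment comparisons. WT libraries had 212.1 and 201 CPM with vehicle, 140 and 114 with PM, and 80.2 and 66.8 with OI and PM. Acod1-/- libraries had 223 and 241, then 140 and 145, then 75.6 and 75.4 CPM. The 3 treatments did not overlap in either genotype. PM lowered it by 0.70 ± 0.11 on the log2 scale in WT (edgeR adjusted p = 0.00135) and by 0.70 ± 0.11 in Acod1-/- (edgeR adjusted p = 0.00112), to 0.615 and 0.614 times the vehicle level. OI lowered it by a further 0.79 ± 0.11 in WT (edgeR adjusted p = 0.000269) and 0.92 ± 0.11 in Acod1-/- (edgeR adjusted p = 0.000106). With OI and PM, the mean was 0.356 times the vehicle mean in WT and 0.325 times in Acod1-/-. The gene, whose transcript carries the 4 motif copies printed above, lies at chr16:32608920-32632794 on the plus strand, and none of its 50-base windows occurs in another gene.

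Slc11a1, which moves iron and other divalent metals across the phagosome membrane of macrophages, rose with PM and again with OI. It stood at 381 and 359 CPM in WT with vehicle, 613 and 624 with PM, and 971 and 1097 with OI and PM. In Acod1-/- it stood at 365 and 374, then 613 and 597, then 895 and 870 CPM. PM raised it by 0.74 ± 0.07 on the log2 scale in WT (edgeR adjusted p = 3.62e-05) and by 0.71 ± 0.07 in Acod1-/- (edgeR adjusted p = 3.76e-05). OI added 0.74 ± 0.07 in WT (edgeR adjusted p = 1.07e-05) and 0.54 ± 0.07 in Acod1-/- (edgeR adjusted p = 0.000107). No 2 treatments overlapped in either genotype, and Slc11a1 had the smallest SE of the 10 genes in this fit. It lies at chr1:74375195-74386062 on the plus strand.

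Slc11a2, the related importer DMT1 of endosomes and of the cell surface, rose with PM. WT libraries had 54.7 and 55.8 CPM with vehicle, 90.3 and 85.9 with PM, and 76.9 and 87.5 with OI and PM. Acod1-/- libraries had 58.9 and 59.5, then 92.6 and 94.2, then 71.9 and 75.3 CPM. PM raised it by 0.67 ± 0.07 on the log2 scale in WT (edgeR adjusted p = 0.000127) and by 0.66 ± 0.07 in Acod1-/- (edgeR adjusted p = 0.000126). OI lowered it by 0.34 ± 0.07 in Acod1-/- (edgeR adjusted p = 0.00415), while in WT the libraries with and without OI overlapped (-0.10 ± 0.07, edgeR adjusted p = 0.283). The WT value passed without WT OI and PM replicate 2 (-0.20, edgeR adjusted p = 0.039) and with total count scaling (-0.23, edgeR adjusted p = 0.0148), and over its alternatives the adjusted p ran from 0.0148 to 0.907. The gene lies at chr15:100387898-100425072 on the minus strand and shares exon sequence with Gm5475 on the other strand, which stayed at or below 0.0555 CPM.

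Blvrb, which reduces biliverdin and flavins, rose in both steps, like Fth1. It stood at 211.7 and 201 CPM in WT with vehicle, 387 and 474 with PM, and 690 and 1042 with OI and PM. In Acod1-/- it stood at 211.9 and 203, then 432.5 and 434, then 706 and 780 CPM. PM raised it by 1.06 ± 0.16 on the log2 scale in both genotypes (edgeR adjusted p = 0.00129 in WT and 0.00108 in Acod1-/-). OI added 1.01 ± 0.16 in WT (edgeR adjusted p = 0.000723) and 0.78 ± 0.16 in Acod1-/- (edgeR adjusted p = 0.00398). Its ratio of means from vehicle to OI and PM, 4.19 in WT and 3.59 in Acod1-/-, was the highest of the 10 genes in each genotype. It lies at chr7:27447978-27466144 on the plus strand.

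Blvra, the enzyme that reduces biliverdin IXalpha to bilirubin, did not pass in any comparison. Its libraries had 111 and 114 CPM in WT with vehicle, 105 and 131 with PM, and 94.7 and 130 with OI and PM, and 102 to 118 CPM across the Acod1-/- groups. Log2 fold changes of the treatments lay between -0.11 and 0.07, with an SE of 0.14 each, and the smallest edgeR adjusted p was 0.614. The WT replicates with PM, and those with OI and PM, were farther apart than the means of the treatments. Without WT OI and PM replicate 2 the effect of OI in WT was -0.32 (edgeR adjusted p = 0.0409), and over its alternatives the adjusted p ran from 0.0409 to 0.777. The gene lies at chr2:127070665-127097084 on the plus strand.

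Ireb2 had lower values with PM than with vehicle, short of the threshold in the fit without a replicate block. It stood at 112 and 111 CPM in WT with vehicle, 94.9 and 74.3 with PM, and 83.0 and 63.6 with OI and PM. In Acod1-/- it stood at 116 and 118, then 91.7 and 98.4, then 87.8 and 87.5 CPM. All 4 vehicle libraries lay above all 8 libraries with PM. The PM effect was -0.39 ± 0.13 on the log2 scale in WT (edgeR adjusted p = 0.0524) and -0.30 ± 0.13 in Acod1-/- (edgeR adjusted p = 0.128). In WT it passed with DESeq2 (-0.41, adjusted p = 0.0261), total count scaling (-0.49, edgeR adjusted p = 0.0401), the length correction (-0.21, edgeR adjusted p = 0.0345) and without WT PM replicate 1 (-0.58, edgeR adjusted p = 0.0167), and over its alternatives the adjusted p ran from 0.0167 to 0.342. The WT effect also passed with the replicate block, alone or with the length correction. In Acod1-/- the PM effect passed with the compared groups alone (-0.29, edgeR adjusted p = 0.00109), a fit that called 50.4% of all genes. It was -0.13 with the length correction (edgeR adjusted p = 0.176). OI moved it by -0.21 ± 0.13 in WT (edgeR adjusted p = 0.229) and -0.12 ± 0.13 in Acod1-/- (edgeR adjusted p = 0.541), and the WT value passed without WT PM replicate 2 (-0.37, edgeR adjusted p = 0.0469) or without WT OI and PM replicate 1 (-0.41, edgeR adjusted p = 0.0113). The gene lies at chr9:54863789-54912530 on the plus strand.

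**Figure D3:**
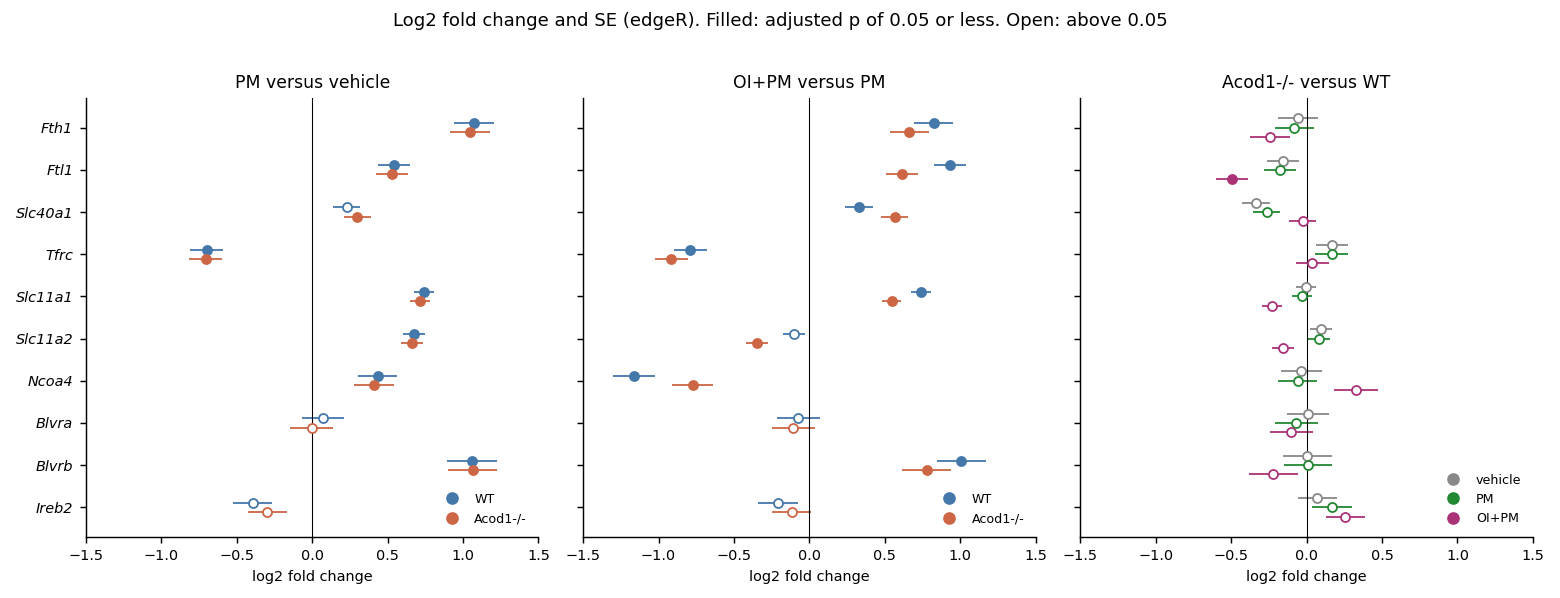
Log2 fold changes (horizontal axes) of the 10 iron genes with their SE, for PM against vehicle, OI and PM against PM, and Acod1-/- against WT, from 1 edgeR fit of 12 libraries. Filled points have an adjusted p of 0.05 or less. The WT and Acod1-/- points of the PM panel overlap within their SE, Tfrc is left of 0 in both treatment panels, Ncoa4 changes side between them, and in the genotype panel the 1 filled point is Ftl1 with OI and PM at -0.49.

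Between the genotypes, the counts of iron genes called were near the shares of all genes. With vehicle none of the 10 was called by edgeR, against 1.83% of all genes, and with PM none was called, against 2.4%. Both shares were lower when any library compared was left out. At an unadjusted p below 0.05 there was 1 of the 10 in each comparison, Slc40a1, beside 10.2% and 14% of all genes, and DESeq2 called 0 in each, beside 2.73% and 3.87%. The length correction called Slc40a1 in both (edgeR adjusted p = 0.00646 and 0.0119), and the compared groups alone called it with vehicle (edgeR adjusted p = 4.77e-08), together with Ftl1 (edgeR adjusted p = 0.000109) and Tfrc (edgeR adjusted p = 0.00145), in a fit that called 20.6% of all genes. Slc40a1 was lower in Acod1-/- by 0.34 ± 0.09 on the log2 scale with vehicle (edgeR adjusted p = 0.138) and by 0.26 ± 0.09 with PM (edgeR adjusted p = 0.208), with no overlap of libraries, and with OI and PM the value was -0.03 ± 0.09. With OI and PM, 1 of the 10 was lower in Acod1-/-, Ftl1, against 4.45% of all genes, by 0.49 ± 0.11 (edgeR adjusted p = 0.0256), or 0.711 times the WT level. That call was lost without WT OI and PM replicate 2 (-0.36, edgeR adjusted p = 0.0854), without Acod1-/- OI and PM replicate 1 (-0.54, edgeR adjusted p = 0.13) and without replicate 2 (-0.45, edgeR adjusted p = 0.175), and over its alternatives the adjusted p ran from 0.00116 to 0.29. With the length correction the value was -0.30 (edgeR adjusted p = 0.0171). Total count scaling put 3.67% of all genes higher and 3.2% lower, against 2.51% and 4.45%, and 1 of the 10 lower. Without WT OI and PM replicate 1, 8 of the 10 genes were called in this comparison, beside 48.6% of all genes, with the WT arm resting on replicate 2, the library with the highest Fth1 and Blvrb. Ftl1 with vehicle was -0.16 ± 0.11 (edgeR adjusted p = 0.788) and with PM -0.17 ± 0.11 (edgeR adjusted p = 0.52). Slc11a1 with OI and PM was -0.23 ± 0.07 (edgeR adjusted p = 0.0641). It passed with DESeq2 (-0.22, adjusted p = 0.0334) and with the length correction, though not with that correction and the replicate block together. Without WT OI and PM replicate 1 it was -0.31. The methods name C57BL/6NJ for the WT mice, the background of the knockout, whereas the labels say C57BL/6. If the labels hold, Acod1 and strain background cannot be told apart. Nnt, a gene disrupted in the C57BL/6J substrain, had 21.2 to 37.7 CPM in the WT libraries and 52.0 to 74.3 CPM in the Acod1-/- libraries, and Wdfy1 had 12.3 to 16.9 and 55.8 to 71.9 CPM, with no overlap of genotypes. Both were chosen after their values were seen, and the part of strain in the results was not tested.

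Neither treatment effect was shown to differ between the genotypes. For the PM effect, edgeR called 0.0% of the 11228 genes, with 273 at an unadjusted p below 0.05 and 3 called by DESeq2, and the differences of the 10 iron genes lay between -0.08 and 0.10 on the log2 scale, 0 of them at an unadjusted p below 0.05. For the OI effect, edgeR called 0.0%, with 717 at an unadjusted p below 0.05 and 34 called by DESeq2, none of them among the 10. The OI differences (Acod1-/- minus WT) lay between -0.32 ± 0.15 for Ftl1 and 0.39 ± 0.20 for Ncoa4, and 1 of the 10, Slc11a2 at -0.24 ± 0.10, had an unadjusted p below 0.05 (edgeR adjusted p = 0.759), beside 6.39% of all genes. Without WT OI and PM replicate 1, edgeR called 525 genes (4.68%) and 0 of the 10, with Ftl1 at -0.44 (edgeR adjusted p = 0.0653) and Ncoa4 at 0.59 (edgeR adjusted p = 0.0725). Over the libraries left out, Ftl1 ran from -0.48 to -0.16, the ends being without WT PM replicate 2 and replicate 1, and Ncoa4 from 0.22, without WT OI and PM replicate 2, to 0.59.

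Levels can be compared between genes per length, though they depend on the length taken, and those of Ftl1 and Ncoa4 are uncertain. In WT with vehicle, TPM over union exons was 13302 ± 343 for Fth1 (SD, n = 2), 3125 ± 69 for Ftl1, 374 ± 17.2 for Slc11a1, 278 ± 10.6 for Blvrb, 223 ± 23.1 for Slc40a1, 172 ± 2.64 for Blvra and 125 ± 5.25 for Tfrc. Ireb2 at 44.0 ± 0.33, Slc11a2 at 32.6 ± 0.37 and Ncoa4 at 4.39 ± 0.51 followed. Both ferritin chains stood above every transporter, and Ncoa4 was the lowest of the list. In WT with OI and PM, Tfrc had dropped to 35.9 ± 8.35 TPM, close to Slc11a2 at 38.6 ± 0.52, while Fth1 stood at 39083 ± 4970. By the longest transcript in place of union exons, Slc11a1, Blvrb and Slc40a1 had 393, 398 and 394 TPM in WT with vehicle. The order of these genes therefore depends on the length taken.

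Across the 12 libraries the iron genes fell into a few patterns, given as Pearson's r of log2 CPM, a description over 12 libraries of 6 groups that share treatments. Fth1 ran with Blvrb (r = 0.997) and Slc11a1 (0.991) and against Tfrc (-0.98). Ftl1 had r = 0.956 with Fth1, and Slc40a1 had 0.885 with Ftl1. Ncoa4 had r = -0.65 with Ftl1, and Blvra lay between -0.34 and 0.13 with the others. Among all genes with a mean of at least 5 CPM, those most like Fth1 were Blvrb, Sqstm1 and Clec4d (r = 0.997, 0.996 and 0.996), and those most like Blvrb were S100a8, Fth1 and Sqstm1 (0.997, 0.997 and 0.996). Those most like Ftl1 were Gpr108, Sptlc2 and 2210408F21Rik (0.995, 0.993 and 0.993). For Slc40a1 they were Ppip5k1, B430306N03Rik and Acox3 (0.985, 0.967 and 0.961), and for Tfrc Pdxk, Myo1e and Psd3 (0.995 each). Of these, Sqstm1, 2210408F21Rik, Ppip5k1, Acox3, Pdxk and Psd3 overlap exons of another gene, so their counts are uncertain.

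The heme pathway supplies much of the iron that macrophages handle. Hmox1, the heme oxygenase that frees iron from heme, rose from 1649 CPM with vehicle to 3577 with PM and 9413 with OI and PM in WT, and from 1440 to 2612 to 6319 in Acod1-/- (means of 2 libraries). PM raised it by 1.12 ± 0.09 on the log2 scale in WT (edgeR adjusted p = 2.66e-05) and OI by 1.40 ± 0.10 (edgeR adjusted p = 1.45e-06), with 0.86 ± 0.09 and 1.27 ± 0.09 in Acod1-/-. It was lower in Acod1-/- with PM (-0.45 ± 0.09, edgeR adjusted p = 0.0364) and with OI and PM (-0.57 ± 0.09, edgeR adjusted p = 0.0093). How these Hmox1 calls fare under the alternatives is not given here. For neither treatment effect did edgeR call any gene as differing between the genotypes. By qPCR, another measure, the paper reported equal induction of Hmox1 by PM in WT and Acod1-/- BMDMs. Of 12 tested genes for heme uptake, transport and degradation (14 listed), 6 rose and 3 fell with PM in WT, beside 12.6% and 12.2% of all genes, and 2 rose and 6 fell with OI, beside 21.3% and 22.6%. In Acod1-/- the counts were 6 and 2 with PM, beside 12% and 11.9%, and 2 and 7 with OI, beside 13.9% and 20.6%. Spic, a transcription factor of iron-recycling macrophages, rose with PM and fell with OI (1.78 ± 0.21, then -0.61 ± 0.19 in WT). Hp, haptoglobin, which binds free hemoglobin, had group means of 0.702 CPM with vehicle, 14.5 with PM and 0.923 with OI and PM in WT, and 0.744, 23.0 and 0.931 in Acod1-/-. Hp passed the filter on low values through the groups with PM alone, where it was high, so its levels are a description and its place in the counts is no support. Abcg2, a transporter, fell with PM and again with OI, by 0.39 ± 0.08 and then 1.10 ± 0.08 in WT and by 0.60 ± 0.08 and then 0.67 ± 0.08 in Acod1-/-. It was higher in Acod1-/- with vehicle (0.40 ± 0.08, edgeR adjusted p = 0.0295) and with OI and PM (0.61 ± 0.08, edgeR adjusted p = 0.00427). With PM it did not pass (0.18 ± 0.08, edgeR adjusted p = 0.341). Between the genotypes, 1 of the 12 was higher and 0 lower in Acod1-/- with vehicle, beside 0.891% and 0.935% of all genes. The counts were 0 and 1 with PM, beside 1.1% and 1.3%, and 1 and 2 with OI and PM, beside 2.51% and 4.45%. Cd163, the receptor for haptoglobin-hemoglobin, had means of 5.16 CPM with vehicle, 3.21 with PM and 0.86 with OI and PM in WT, and 4.23, 2.66 and 1.39 in Acod1-/-. Its means with OI and PM lie under the filter on low values, so these levels too are a description. Without Hp and Cd163, 5 of 10 rose and 2 fell with PM in WT, and 2 rose and 4 fell with OI. In Acod1-/- the counts without them were 5 and 1 with PM, and 2 and 5 with OI.

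Heme synthesis had 2 of 10 genes raised by PM in each genotype and none lowered, a share near that of all genes (12.6% and 12% higher), and Alas1, its first enzyme outside the erythroid line, rose by 1.18 ± 0.07 with PM and 1.41 ± 0.07 with OI in WT (edgeR adjusted p = 2.7e-06 and 1.82e-07). With OI, 5 of the 10 rose and 1 fell in WT, beside 21.3% and 22.6% of all genes, and 3 rose and 0 fell in Acod1-/-, beside 13.9% and 20.6%. For genotype, 0 of the 10 were called with vehicle or with PM, beside 1.83% and 2.4% of all genes. With OI and PM, 0 were higher and 2 lower in Acod1-/-, Alas1 among them, beside 2.51% and 4.45%. Of 8 tested genes for other iron transport and oxidation (12 listed), 3 passed the filter on low values only through the groups where they were high, so their levels are given as a description. Of the other 5, 2 rose and 1 fell in each of the 4 treatment comparisons, where 12% to 21.3% of all genes rose and 11.9% to 22.6% fell. The ferroxidase Heph, hephaestin, had WT means of 0.0388 CPM with vehicle, 0.301 with PM and 3.56 with OI and PM. The ferroxidase Cp, ceruloplasmin, had 0.56, 2.27 and 0.437 CPM, and Lcn2, which binds bacterial siderophores, had 0.52, 2.83 and 0.392 CPM. Heph, Cp and Alas1 overlap exons of Hsf3, Hps3 and 4930500F10Rik, so their counts are uncertain.

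Of 7 tested regulators around the iron-regulatory proteins (8 listed), 2 rose and 1 fell with PM in WT, and 1 rose and 2 fell with OI. In Acod1-/- 1 rose and 0 fell with PM, and 1 rose and 1 fell with OI. With 11.9% to 22.6% of all genes called in each direction, these counts are near those of all genes. Fbxl5, the iron-sensing adaptor that marks IRP2 for degradation, rose in all 4 treatment comparisons, by 0.48 ± 0.06 and 0.38 ± 0.06 with PM and by 0.73 ± 0.06 and 0.88 ± 0.06 with OI in WT and Acod1-/-. Aco1, which encodes IRP1, did not pass and gave 0.01 ± 0.06 with PM in WT and 0.03 ± 0.06 in Acod1-/-. Fbxl5 and Aco1 were chosen after their values were seen. Hfe, which binds the transferrin receptor, fell with OI by 1.01 ± 0.07 in WT and 0.91 ± 0.07 in Acod1-/- (edgeR adjusted p = 2.66e-06 and 5.44e-06). Among the 3 tested genes of systemic iron signals, of 11 listed, 0 were called with PM and 2, Hfe among them, fell with OI in each genotype, where 22.6% and 20.6% of all genes fell. Of 20 genes for iron-sulfur cluster assembly, 3 rose and 2 fell with PM in WT, near the 12.6% and 12.2% of all genes, and 5 rose and 0 fell with OI, where 21.3% of all genes rose and 22.6% fell. In Acod1-/- the counts were 3 and 1 with PM, near the 12% and 11.9% of all genes, and 3 and 0 with OI, beside 13.9% and 20.6%.

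Ferroptosis is a form of cell death driven by iron and lipid peroxides. The list of 10 ferroptosis genes held 8 of the defence against it and 2, Acsl4 and Lpcat3, that build the oxidizable phospholipids it needs. With PM 8 of the 10 rose in each genotype, beside 12.6% and 12% of all genes, and in WT Lpcat3 was among them (0.24 ± 0.06, edgeR adjusted p = 0.0161). With OI 6 of the 10 rose in WT and none fell, and 6 rose and 1 fell in Acod1-/-, where 21.3% and 13.9% of all genes rose and 22.6% and 20.6% fell, and Lpcat3 was among the 6 in both genotypes (0.40 ± 0.06 and 0.39 ± 0.06). Acsl4 did not pass in any of these comparisons, and Acsl4 and Lpcat3 were named after their values were seen. Slc7a11, the cystine importer, rose by 3.33 ± 0.16 with PM and by 2.30 ± 0.15 with OI in WT. Gclc and Gclm, the subunits of the first enzyme of glutathione synthesis, rose with OI by 2.51 ± 0.07 and 1.68 ± 0.06 in WT, and Gss, the second enzyme, by 2.26 ± 0.13. Slc3a2, the partner of Slc7a11, rose with OI by 1.08 ± 0.08, whereas Gch1, of tetrahydrobiopterin synthesis, rose with PM (1.29 ± 0.14) and gave -0.04 ± 0.14 with OI. Gclm and Gss overlap exons of other genes (Gm17494 and Gm6061, and Acss2, Gssos1 and Gssos2), so their counts are uncertain. The median log2 fold change of the 10 was 0.73 with PM and 0.74 with OI in WT, beside 0.01 and 0.02 over all genes. For genotype, 0 of the 10 were called with vehicle or with PM, beside 1.83% and 2.4% of all genes. With OI and PM, 0 were higher and 4 lower in Acod1-/-, Gss, Slc3a2 and Lpcat3 among them, beside 2.51% and 4.45% of all genes. These lists were chosen with earlier results of these data known, so the counts are a description.

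**Figure D4:**
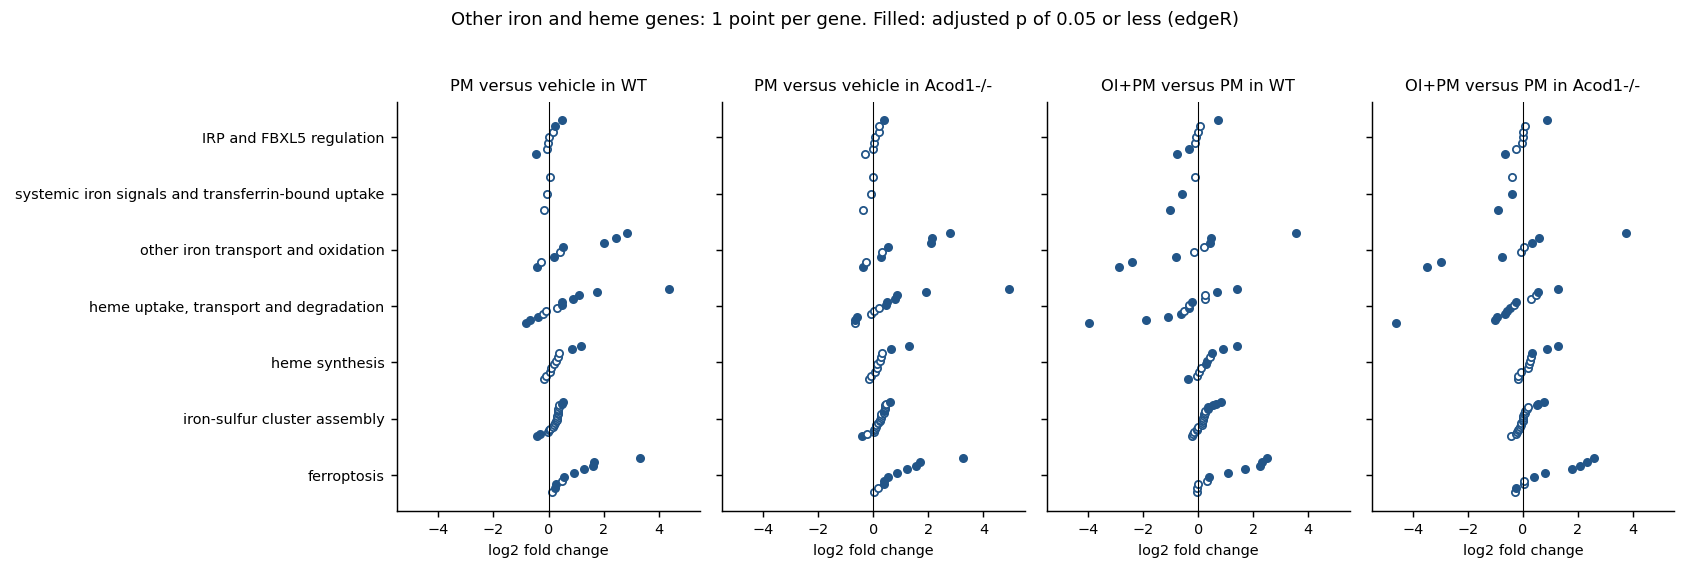
Log2 fold changes (horizontal axes) of the tested genes of 7 lists of iron and heme genes (rows), 1 point a gene, in the 4 treatment comparisons, with filled points at an edgeR adjusted p of 0.05 or less. The ferroptosis genes lie mostly right of 0 in each panel, and Hp, Cp and Lcn2, far from 0 in the heme uptake and iron transport lists, change side between PM and OI, while Heph stays right of 0.

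Markers of other cell types were looked at because iron genes are abundant in red cell precursors and in granulocytes. All 8 erythroid markers were below 1 CPM in every library, with a sum of 0.15 to 1.04 CPM, and Hba-a1 and Hbb-bs were at 0. The 7 neutrophil markers summed to between 4.86 and 5.53 CPM with vehicle, 11.5 to 17.6 with PM and 29.3 to 61.0 with OI and PM, the same order as Fth1. Ly6g, Mpo, Elane, Camp and Retnlg of that list stayed below 1 CPM, and S100a8 and S100a9 made up at least 94.5% of the sum in every library. T cell and mast cell markers were below 1 CPM throughout. The 4 B cell markers summed to 2.54 to 3.64 CPM with vehicle, 2.49 to 4.04 with PM and 0.862 to 1.17 with OI and PM, and the 4 fibroblast and stromal markers to 1.72 to 2.57, 1.21 to 2.27 and 0.271 to 1.05 CPM. The 4 megakaryocyte markers summed to 199 to 297 CPM with vehicle, 528 to 688 with PM and 599 to 978 with OI and PM, with Itga2b and Gp9 below 1 CPM. The part of these transcripts in the iron gene results was not tested.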

How the data were processed

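RNA was sequenced in 12 libraries as single-end reads, and the authors mapped them to GRCm38 with STAR 2.5.3a. The authors deposited whole-number read counts for each gene from featureCounts, neither normalized nor filtered. The annotation release, strand setting and handling of multiply mapped reads are not given in the sources used here. Samples were grouped by their deposited labels. Genes with CPM above 1.5 in at least 2 libraries were tested in edgeR 4.0.16 (R 4.3.3) by quasi-likelihood, with TMM scaling and a mean for each of 6 groups, without a replicate block. The fit was tested on simulated counts with known changes. These were drawn independently for each gene and library, without the replicate differences that rose with exonic length. Patterns used log2(CPM + 0.5). Positions and lengths came from GENCODE M21.

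The alternatives were DESeq2 1.42.0, the compared groups alone, RLE or total count scaling, other filters (10 counts in total, or CPM above 1.5 in all 12 libraries), a 2-fold threshold, a replicate block, a length correction with a lowess span of 0.3, and each library left out. The members and gene lists were chosen with earlier results of these data known. Named are the 10 members, list genes past 2-fold in any comparison (at most 6 a list), and the 3 genes most like Fth1, Ftl1, Slc40a1, Tfrc and Blvrb, with Fbxl5, Aco1, Acsl4 and Lpcat3 added after their values were seen.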

Additional observations from a re-analysis of the deposited data

How the results depend on the processing

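Of the 31 calls over 90 pairs of gene and comparison, 25 held under every alternative that was run, the 2-fold threshold aside. The sign changed in 31 pairs, of which 0 were called, the largest having a log2 fold change of 0.24 in size. With the 2-fold threshold, 2 members were higher with PM in WT and 2 in Acod1-/-, beside 3.02% and 3.19% of all genes. For OI in WT 1 was higher and 1 lower, beside 2.3% and 8.49%. For OI in Acod1-/- 0 were called in either direction, beside 9.83%. For genotype with OI and PM, the call for Ftl1 at -0.49 fell short of 2-fold. For genotype with vehicle, 1 was called with the length correction (3.32% of all genes, 1.83% without it), 1 with it and the replicate block (3.31%), and 3 in the compared groups alone (20.6%). For genotype with PM, 1 was called with the length correction (5.25%, against 2.4%) and 1 with it and the replicate block (5.33%). For genotype with OI and PM, 2 were called with the length correction (15.4%, against 6.96%), 2 with DESeq2 (11.8%) and 0 in the compared groups alone, which called 2 genes in all, and leaving out a library gave 0 to 8 (0.846% to 48.6%). For PM in WT leaving out a library gave 6 to 7 and moved the share of all genes from 24.8% to between 10.6% and 30.7%. For PM in Acod1-/- leaving out a library gave 5 to 6, while the share of all genes went from 23.9% to between 12.4% and 15.2%. A left-out library leaves a lone sample that is assumed to vary like the other groups. The cause of these shifts was not tested.

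Blvra with PM in WT was -0.020 with total count scaling, -0.088 with the length correction and -0.090 with it and the block (without a library, -0.092 to 0.22). Blvra with PM in Acod1-/- was 0.0016 with the filter of 10 counts and 0.0029 in the compared groups alone (without a library, -0.074 to 0.063), and with OI in WT -0.32 to 0.14 without a library. Slc40a1 for genotype with OI and PM was 0.041 with total count scaling (without a library, -0.13 to 0.082). Ftl1 with PM in WT was 0.28 with the length correction and remained called. Total count scaling moved the median of all genes by -0.13 for OI in WT. The longest transcript in place of union exons put the Fth1 to Ftl1 ratio in WT with vehicle at 5.18.

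The labels do not say that replicate numbers mark a batch, and same-numbered libraries did not deviate together throughout (r from -0.41 to 0.73), so they were not taken as pairs. With the replicate block, 9 members were called for PM in WT (27.4% of all genes, 24.8% without it) and 7 for PM in Acod1-/- (25.5%, against 23.9%), where Ncoa4 had an adjusted p of 0.0532, and 7 and 8 for OI (45.7% and 35.6%, against 43.9% and 34.6%). The block added Slc40a1 (0.23, adjusted p = 0.0497) and Ireb2 (-0.40, adjusted p = 0.0393) for PM in WT, the genotype within which r was 0.23 to 0.73. Ncoa4, the lowest of the 10 genes, had 396 and 443 counts in the WT libraries with vehicle.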
